A study of Rattus norvegicus with 6 samples.

Results

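The genes of DNA replication and S phase were examined in rat liver tissue after transarterial embolization (TAE). A list of 36 genes was taken, and rows of the deposited expression table were matched to it by gene symbol. The table held 34 of them among 32623 annotated genes, and all 34 had enough counts to be tested. E2f1 and Chek1 of the list were not analysed here. Embolization blocks the arteries that feed a liver tumour. RNA was sequenced from 3 libraries of the TAE group, whose animals underwent that procedure, and from 3 libraries of the HCC group, named for hepatocellular carcinoma, whose animals were left untreated. The tissue of every library is labelled liver. The sources used here give no strain, sex or age, nor how tumours were induced, how long after embolization tissue was taken or how much of each piece was tumour. The replicates are called biosamples with no word on whether each is a separate animal, and the tests below therefore rest on the variation among these libraries, which may be technical.

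A cell copies its genome once per division. Before S phase the origin recognition complex, with Cdc6 and Cdt1, loads the ring of Mcm2 to Mcm7 subunits onto DNA, and at the start of S phase Cdc45 and the GINS complex turn that ring into the moving helicase. DNA polymerases then copy both strands, held on DNA by the sliding clamp Pcna, while ribonucleotide reductase, thymidylate synthase and thymidine kinase supply deoxynucleotides. Transcription of many of these genes is switched on together by E2F factors, so that their transcripts mark cycling cells. Hepatocytes of a healthy adult liver seldom divide, and they re-enter the cycle when liver tissue is lost.

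The total count was 13448286 to 16604067 per library, and the TMM scaling factors, which correct a library's total for its make-up, were 1.05, 1.13 and 0.893 for TAE replicates 1 to 3 against 0.966 to 0.995 for the HCC libraries. Hepatocyte transcripts were abundant in all 6 libraries, with Alb at 5318 to 15305 FPKM in TAE and 12096 to 15868 FPKM in HCC. FPKM is the fragment count per kilobase of exon and per library total. Of the liver tumour genes, Afp, the fetal albumin-like protein, was at 1.21 to 2.06 FPKM in TAE and 1.63 to 2.20 FPKM in HCC, and Gpc3, a cell surface proteoglycan, at 2.61 to 5.95 FPKM in TAE and 0.79 to 1.25 FPKM in HCC. Each replication gene had 173 to 5130 counts per library.

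The replication genes varied together between the TAE libraries and hardly varied between the HCC libraries. TAE replicate 3 held a median of 41.8% of the HCC mean FPKM over the 34 genes (range 25.2% to 62.5%), TAE replicate 1 held 77.5% (55.8% to 111%) and TAE replicate 2 held 119% (99.1% to 135%). Their FPKM summed to 1021, 1513 and 556 in TAE replicates 1, 2 and 3, against 1320, 1271 and 1286 in HCC replicates 1, 2 and 3. The HCC libraries thus lay close to each other, while the TAE libraries fell on both sides of them. For 33 of the 34 genes TAE replicate 3 was the lowest and TAE replicate 2 the highest of the TAE libraries, an order found in 40.2% of all genes tested, and Tyms was the exception. The coefficient of variation of FPKM, the SD as a share of the mean, was a median of 48.6% in TAE and 5.27% in HCC over the replication genes, and 25.3% in TAE and 9.80% in HCC over all 14499 genes tested. It was larger in TAE for 34 of 34 replication genes and for 82.4% of all genes.

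How each library stood against the HCC range depended in part on the scaling. TAE replicate 3 was below the lowest HCC library for 34 of 34 genes, both in FPKM, where 49.1% of all genes were, and after TMM scaling, where 41.7% were. Replicate 1 of TAE was below it for 30 genes in FPKM (33.6% of all genes) and for 31 after TMM scaling (40.6%). In TAE replicate 2, by contrast, 29 genes exceeded the highest HCC library in FPKM (57.1% of all genes), but after TMM scaling 15 were above the HCC range, 11 within it and 8 below it, with 31.2% of all genes above and 33.2% below. On that scale the median of the replication genes, relative to the HCC mean, was -0.46, 0.06 and -1.12 log2 units in TAE replicates 1, 2 and 3 and stayed between -0.03 and 0.01 in the HCC libraries. These are medians of log2 CPM, the logarithm of a count scaled to library size. Where a single gene is placed against the HCC range below, the scale is FPKM unless another is named. After TMM scaling TAE replicate 2 was below the HCC range for Orc1, Mcm7, Pola1 and Uhrf1. It was within that range for Cdc45, Rfc5 and Ccne2.

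**Figure D1:**
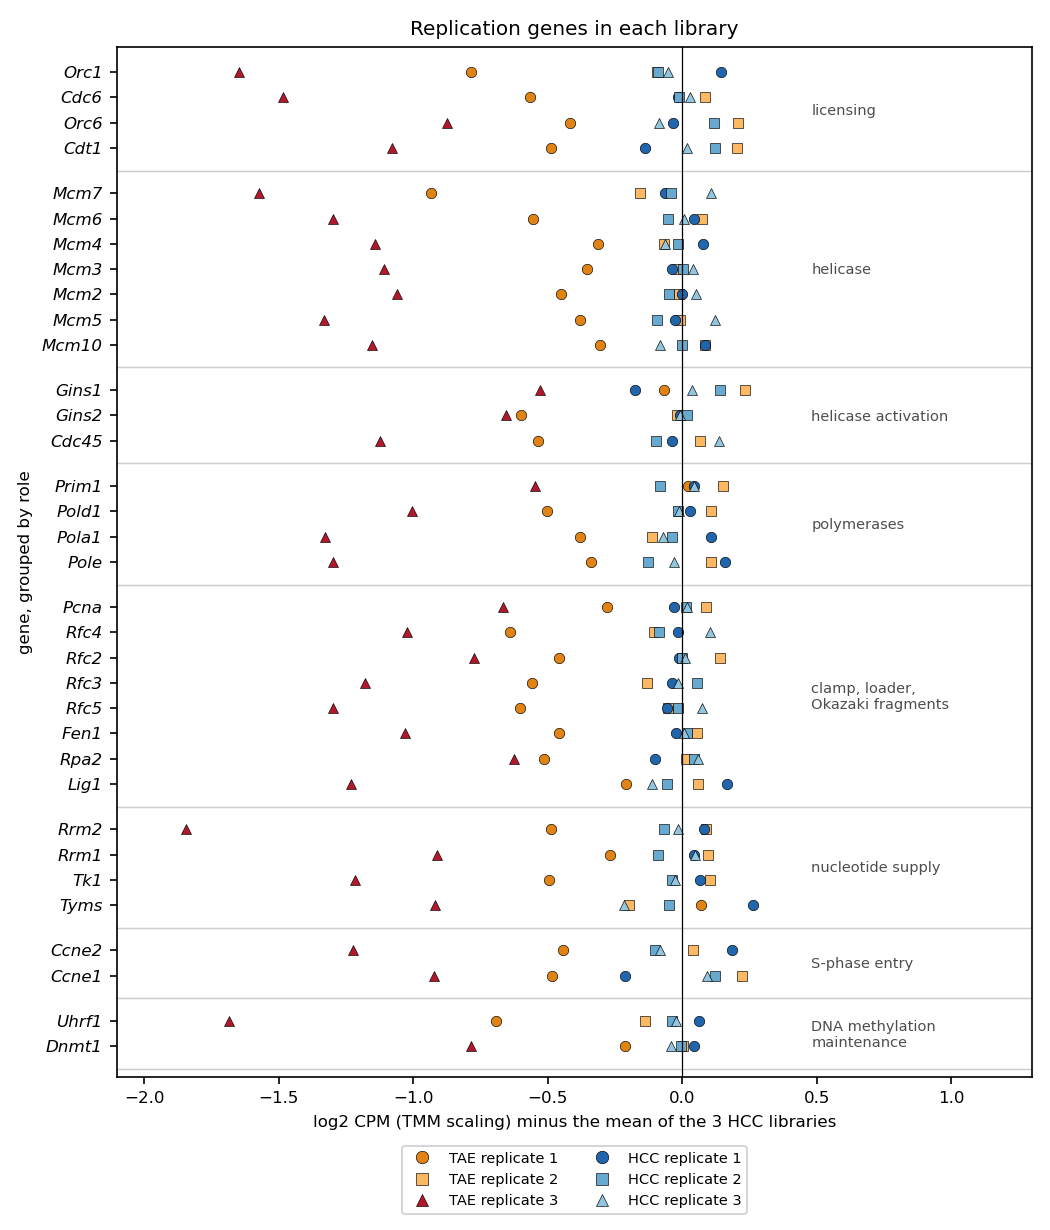
Each of the 34 replication genes in each library, grouped by role, as log2 CPM after TMM scaling minus the mean of the 3 HCC libraries (x axis, log2 units). Triangles of TAE replicate 3 lie at -1.85 to -0.53, left of all HCC points, circles of TAE replicate 1 lie mostly between these and the HCC points, and squares of TAE replicate 2 lie at -0.20 to 0.23, with 15 above, 11 within and 8 below the HCC points of their gene.

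With all 6 libraries, none of the 34 genes passed edgeR's quasi-likelihood test at an adjusted p of 0.05, a threshold that 3.01% of all genes tested passed. DESeq2 and limma on log2(FPKM + 1) called none either, where they called 10.4% and 4.74% of the genes they tested, nor did limma on log2(FPKM + 0.1), with 4.79% called. Before adjustment 2 genes, Mcm7 and Rfc4, had a p under 0.05 in edgeR, while 22.7% of all genes did. All 34 log2 changes, TAE over HCC, were negative, with a median of -0.42 and a range from -0.77 to -0.09. Over all genes the median was -0.03 and 53.1% were negative. The groups overlapped in FPKM for every one of the 34, whereas 5.54% of all genes were lower and 21.9% higher in TAE without overlap. This depended on the scaling. After TMM scaling all TAE libraries lay below every HCC library for Orc1, Mcm4, Mcm7, Gins2, Pola1, Rfc3, Rfc4 and Uhrf1. The share of all genes without overlap on that scale was not computed, so this list has no background to be read against. For Orc1 and Mcm4 the gap was slight. Relative to the HCC mean, TAE replicate 2 was at -0.0924 and -0.0688 log2 units for these genes. Their lowest HCC libraries were at -0.0919 and -0.0622. The size of the mean difference rested on single libraries, since the median log2 change was -0.73 without TAE replicate 2 and -0.15 without TAE replicate 3.

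Leaving out TAE replicate 2, which is the library in which these genes stood highest, gave calls. In that edgeR fit 18 of 34 genes fell and none rose, where 9.56% of all genes fell, and DESeq2 without that library called 27 lower, where 11.6% of all genes were. Leaving out the library with the highest values favours calls of a fall, so these calls are no separate support for one. The same limit holds wherever a gene is said below to have fallen without TAE replicate 2. No replication gene passed in any of the other 5 fits that left out a library, where 8.33% of all genes passed without TAE replicate 3, 0.00681% without TAE replicate 1, and at most 1 gene without any one HCC library. In bulk tissue, fewer cells in cycle and less of a transcript per cell cannot be told apart.

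**Figure D2:**
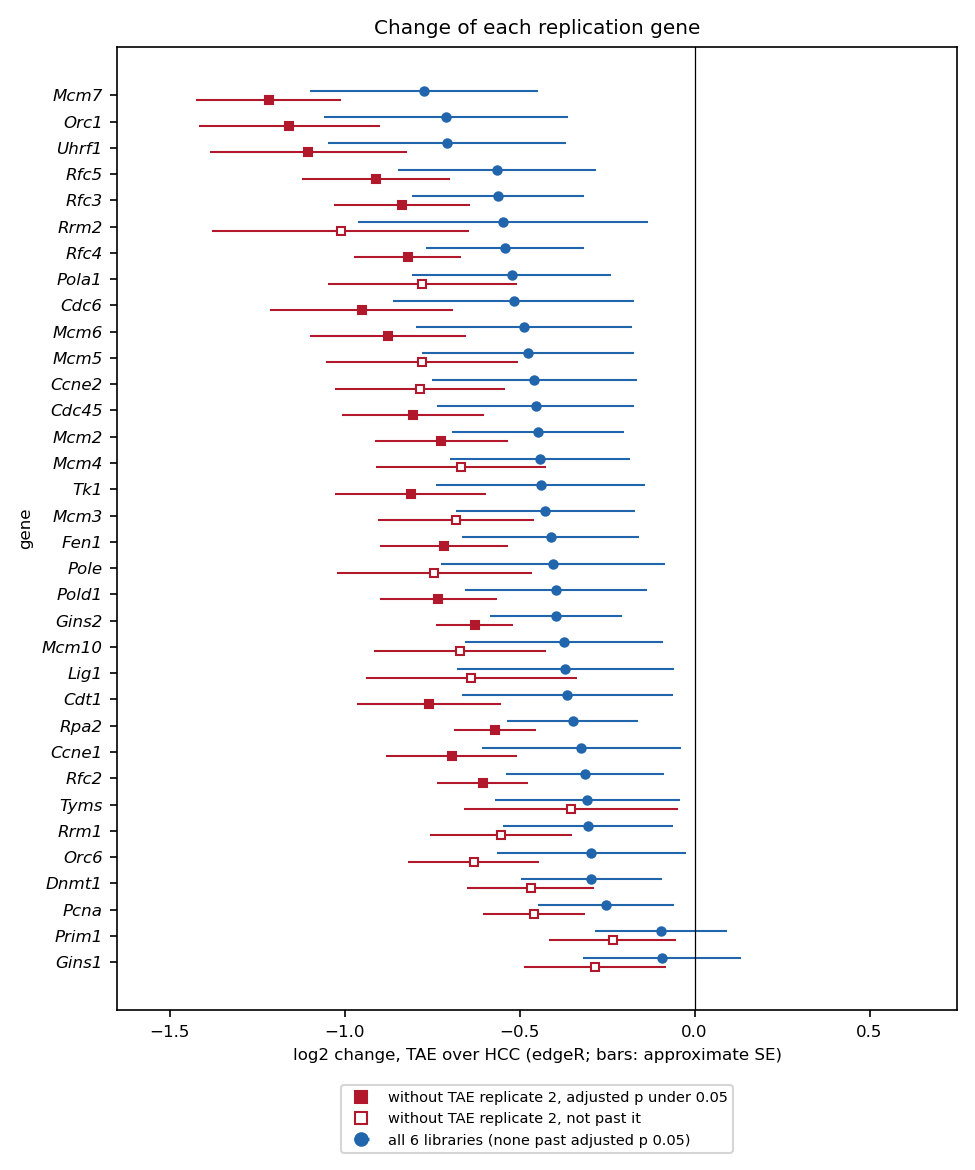
The log2 change (x axis, TAE over HCC, edgeR, bars are approximate SE) of each replication gene with all 6 libraries (blue circles) and without TAE replicate 2 (red squares, filled where the adjusted p is under 0.05). All 34 blue points are negative and none passed, with Mcm7 at -0.77 and Gins1 at -0.09 as the ends, and 18 of the red squares are filled.

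Origin licensing was represented by 4 genes, with log2 changes from -0.71 to -0.29. Orc1, the largest subunit of the origin recognition complex, was measured at 12.6, 22.0 and 5.87 FPKM in TAE replicates 1 to 3 and at 22.8, 19.2 and 19.3 FPKM in HCC replicates 1 to 3. Replicates 1 and 3 of TAE were under every HCC library, and replicate 2 lay inside the HCC range. The log2 change was -0.71 ± 0.35 (SE, edgeR adjusted p = 0.269), and -1.16 ± 0.26 without TAE replicate 2 (adjusted p = 0.0252). Cdc6 and Cdt1, the loading factors that bring the helicase to origins, had log2 changes of -0.52 and -0.36, and Orc6, the smallest subunit of the recognition complex, one of -0.29. Cdc6 hardly varied between the HCC libraries, at 13.2 ± 7.84 FPKM in TAE and 17.4 ± 0.0964 FPKM in HCC (SD, n = 3 each). Without TAE replicate 2, Orc1, Cdc6 and Cdt1 fell and Orc6 did not pass (adjusted p = 0.0542).

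The 6 subunits of the helicase ring had log2 changes from -0.77 to -0.43, and Mcm10, which helps to activate the ring at the origin, one of -0.37. Mcm7, the most abundant subunit transcript (ENSRNOG00000001349, chromosome 12, 19306607 to 19314016 on the minus strand as the deposited table gives it), was at 59.1, 109 and 32.3 FPKM in TAE replicates 1 to 3 and at 103, 103 and 112 FPKM in HCC replicates 1 to 3. TAE replicate 2 lay within the HCC range, and the other TAE libraries lay far under it. Its log2 change of -0.77 ± 0.33 was the most negative of the 34 genes (edgeR adjusted p = 0.216, and 0.0116 without TAE replicate 2). Mcm6 averaged 53.2 ± 29.3 FPKM in TAE and 69.3 ± 2.81 FPKM in HCC, with a log2 change of -0.49 ± 0.31. Mcm5, Mcm2, Mcm4 and Mcm3 had log2 changes of -0.48, -0.45, -0.44 and -0.43. In TAE replicate 3 the ring subunits stood at 30.5% to 43.5% of their HCC mean FPKM. Without TAE replicate 2, Mcm2, Mcm6 and Mcm7 fell, and Mcm3, Mcm4, Mcm5 and Mcm10 did not pass.

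Mcm7 was low relative to its partners in all TAE libraries. The ratio of Mcm7 to the mean of Mcm2 to Mcm6, in FPKM, was 1.53, 1.96 and 1.67 in TAE replicates 1 to 3 and 2.06, 2.17 and 2.31 in HCC replicates 1 to 3. The groups did not overlap in this ratio, which does not depend on how libraries are scaled. It was chosen after the values were seen and was not tested. Mcm7 is the subunit with the most negative log2 change, so the choice favours a separation. TAE replicate 2, at 1.96, lay close under the lowest HCC library, at 2.06.

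The promoters of the ring subunits are shown because E2F factors, which switch on S-phase genes, bind a short motif in many such promoters. Any part of E2F factors in the variation between the TAE libraries was not tested. RefSeq promoter windows of the GRCr8 assembly, 250 bases before to 50 after the start, were searched on both strands for TTTCCCGC, TTTGGCGC, TTTCGCGC and TTTGCCGC. Of the 29 measured replication genes with a window, 15 (51.7%) held at least 1 match, and 2.37% of the 27457 genes with a window did. All 5 ring subunits with a window held one. The stretches below are 100 bases each, written 5′ to 3′ on the gene's strand, with matches on either strand in capitals. In Mcm2 and Mcm6 matches on the 2 strands overlap.
Mcm2 (chr4:122918051-122918150, minus strand): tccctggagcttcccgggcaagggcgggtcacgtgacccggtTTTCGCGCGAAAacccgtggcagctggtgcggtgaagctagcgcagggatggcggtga
Mcm3 (chr9:30733699-30733798, minus strand): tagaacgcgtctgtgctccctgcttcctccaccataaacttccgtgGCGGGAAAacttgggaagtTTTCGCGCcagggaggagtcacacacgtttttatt
Mcm5 (chr19:13488759-13488858, plus strand): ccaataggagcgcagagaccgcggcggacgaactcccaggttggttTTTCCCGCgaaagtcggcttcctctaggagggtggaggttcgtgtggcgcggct
Mcm6 (chr13:42404434-42404533, minus strand): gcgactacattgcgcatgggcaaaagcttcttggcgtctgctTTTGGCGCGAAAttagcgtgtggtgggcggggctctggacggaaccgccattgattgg
Mcm7 (chr12:22163177-22163276, minus strand): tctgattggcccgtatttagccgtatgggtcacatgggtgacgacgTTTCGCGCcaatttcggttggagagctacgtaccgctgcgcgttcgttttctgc
A match describes the sequence and is no evidence of binding. The median log2 change was -0.43 for the 15 genes with a match and -0.38 for the 14 without, which were not tested against each other.

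Helicase activation was represented by Cdc45, Gins1 and Gins2. Cdc45, which joins the ring to form the active helicase, was at 4.01, 6.58 and 2.27 FPKM in TAE replicates 1 to 3 and at 5.39, 5.12 and 5.92 FPKM in HCC replicates 1 to 3, with a log2 change of -0.45 ± 0.28 (edgeR adjusted p = 0.357). TAE replicate 2 was above the HCC range and the other TAE libraries below it, and Cdc45 was the least abundant of the 34 transcripts per length. Gins1, a subunit of the GINS complex, was at 15.7, 20.9 and 9.67 FPKM in TAE replicates 1 to 3 and at 13.8, 17.1 and 15.6 FPKM in HCC replicates 1 to 3. TAE replicate 1 thus lay within the HCC range for Gins1, unlike for most of the list. Its log2 change of -0.09 ± 0.23 was the smallest in size (edgeR adjusted p = 0.819), and its sign turned without TAE replicate 3. Gins2, another GINS subunit, averaged 7.38 ± 2.69 FPKM in TAE and 9.18 ± 0.170 FPKM in HCC, a log2 change of -0.40. Cdc45 and Gins2 fell without TAE replicate 2, and Gins1 did not pass.

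Among the polymerase genes the log2 change was smallest in size for Prim1 and largest for Pola1. Prim1, which makes the RNA primer, was at 64.4, 76.1 and 37.0 FPKM in TAE replicates 1 to 3 and at 62.1, 56.3 and 60.3 FPKM in HCC replicates 1 to 3, so that replicates 1 and 2 of TAE exceeded every HCC library in FPKM. Its log2 change was -0.10 ± 0.19 (edgeR adjusted p = 0.772), and its sign also turned without TAE replicate 3. Pola1, the catalytic subunit of the polymerase that extends that primer, was at 11.8, 15.3 and 5.19 FPKM in TAE replicates 1 to 3 and at 15.7, 14.1 and 13.5 FPKM in HCC replicates 1 to 3. Here TAE replicate 2 lay within the HCC range and the other TAE libraries under it, with a log2 change of -0.52 ± 0.28 (edgeR adjusted p = 0.306). Pole and Pold1, the catalytic subunits of the leading- and lagging-strand polymerases, had log2 changes of -0.40 each. The ratio of Prim1 to Pola1 in FPKM was 5.46, 4.97 and 7.13 in TAE replicates 1 to 3 and 3.95, 4.00 and 4.47 in HCC replicates 1 to 3. These groups did not overlap, but the ratio was chosen after the values were seen and was not tested. It sets the smallest change of this role over the largest, a choice that favours a separation. How often ratios of other gene pairs separate the groups was not computed. Without TAE replicate 2, Pold1 fell and the other polymerase genes did not pass.

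Pcna, the sliding clamp, was the most abundant of the replication transcripts. It was at 146, 204 and 95.2 FPKM in TAE replicates 1 to 3 and at 165, 168 and 166 FPKM in HCC replicates 1 to 3. The HCC libraries were nearly equal, with TAE replicate 2 above them and the other TAE libraries below, and the log2 change was -0.25 ± 0.19 (edgeR adjusted p = 0.442). Rfc2 to Rfc5, the listed subunits of replication factor C, the clamp loader, had log2 changes larger in size. Rfc1, a subunit outside the list, had one of -0.23. Rfc5 was at 24.7, 39.1 and 12.98 FPKM in TAE replicates 1 to 3 and at 34.3, 35.0 and 36.5 FPKM in HCC replicates 1 to 3, a log2 change of -0.56 ± 0.28 (edgeR adjusted p = 0.279). In FPKM, TAE replicate 2 was again above the HCC libraries and the other TAE libraries were below them. Rfc3, Rfc4 and Rfc2 had log2 changes of -0.56, -0.54 and -0.31, and the smallest adjusted p of the 34 genes was that of Rfc4 (edgeR, 0.213). The ratio of Pcna to the mean of Rfc2 to Rfc5 in FPKM was 4.76, 4.25 and 5.06 in TAE replicates 1 to 3 and 3.88, 3.97 and 3.80 in HCC replicates 1 to 3, without overlap. This ratio too was picked with the values known and was not tested. It sets a smaller change over larger ones, which favours a separation. The nuclease Fen1 and the ligase Lig1, which finish Okazaki fragments, had log2 changes of -0.41 and -0.37, and Rpa2, a subunit of the protein that coats single-stranded DNA, one of -0.35. Without TAE replicate 2, Rfc2, Rfc3, Rfc4, Rfc5, Fen1 and Rpa2 fell, and Pcna and Lig1 did not pass.

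Of the genes of nucleotide supply, the reductase subunit Rrm2 had the widest spread. Rrm2, whose transcript and protein rise in S phase, was at 70.1, 113 and 23.3 FPKM in TAE replicates 1 to 3 and at 99.0, 88.3 and 89.8 FPKM in HCC replicates 1 to 3, a log2 change of -0.55 ± 0.41 (edgeR adjusted p = 0.436). Its 25.2% of the HCC mean in TAE replicate 3 was the lowest share of any replication gene, followed by Uhrf1 (28.2%), Orc1 (28.7%) and Mcm7 (30.5%). Rrm1, the large subunit, was steadier, at 56.6 ± 24.4 FPKM in TAE and 65.5 ± 3.48 FPKM in HCC, a log2 change of -0.31. The ratio of Rrm2 to Rrm1 in FPKM was 1.21, 1.40 and 0.736 in TAE replicates 1 to 3 and 1.45, 1.43 and 1.35 in HCC replicates 1 to 3, so that TAE replicates 1 and 3 lay below the HCC range and TAE replicate 2 within it. Tk1, thymidine kinase, had a log2 change of -0.44 and fell without TAE replicate 2, whereas Rrm1, Rrm2 and Tyms did not pass. Tyms, thymidylate synthase, broke the common order, with a log2 change of -0.31, at 22.5, 20.2 and 9.64 FPKM in TAE replicates 1 to 3 and 24.5, 19.5 and 17.1 FPKM in HCC replicates 1 to 3. Only TAE replicate 3 lay outside its HCC range.

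The cyclins that drive entry into S phase followed the same course. Ccne2 was at 18.9, 28.5 and 9.37 FPKM in TAE replicates 1 to 3 and at 27.8, 22.6 and 22.4 FPKM in HCC replicates 1 to 3, a log2 change of -0.46 ± 0.29 (edgeR adjusted p = 0.368). Here too TAE replicate 2 exceeded the HCC libraries and the other TAE libraries lay below them. Ccne1 averaged 15.9 ± 8.11 FPKM in TAE and 18.5 ± 2.13 FPKM in HCC, a log2 change of -0.32, and fell without TAE replicate 2, where Ccne2 did not pass (adjusted p = 0.0604). Uhrf1, which brings the maintenance methyltransferase to newly copied DNA, was at 23.5, 37.2 and 10.1 FPKM in TAE replicates 1 to 3 and at 37.6, 34.8 and 34.5 FPKM in HCC replicates 1 to 3. TAE replicate 2 lay within the HCC range and replicates 1 and 3 under it, with a log2 change of -0.71 ± 0.34 (edgeR adjusted p = 0.264, and 0.0348 without TAE replicate 2). Dnmt1, that methyltransferase, had a log2 change of -0.29 ± 0.20 and did not pass in either fit.

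**Figure D3:**
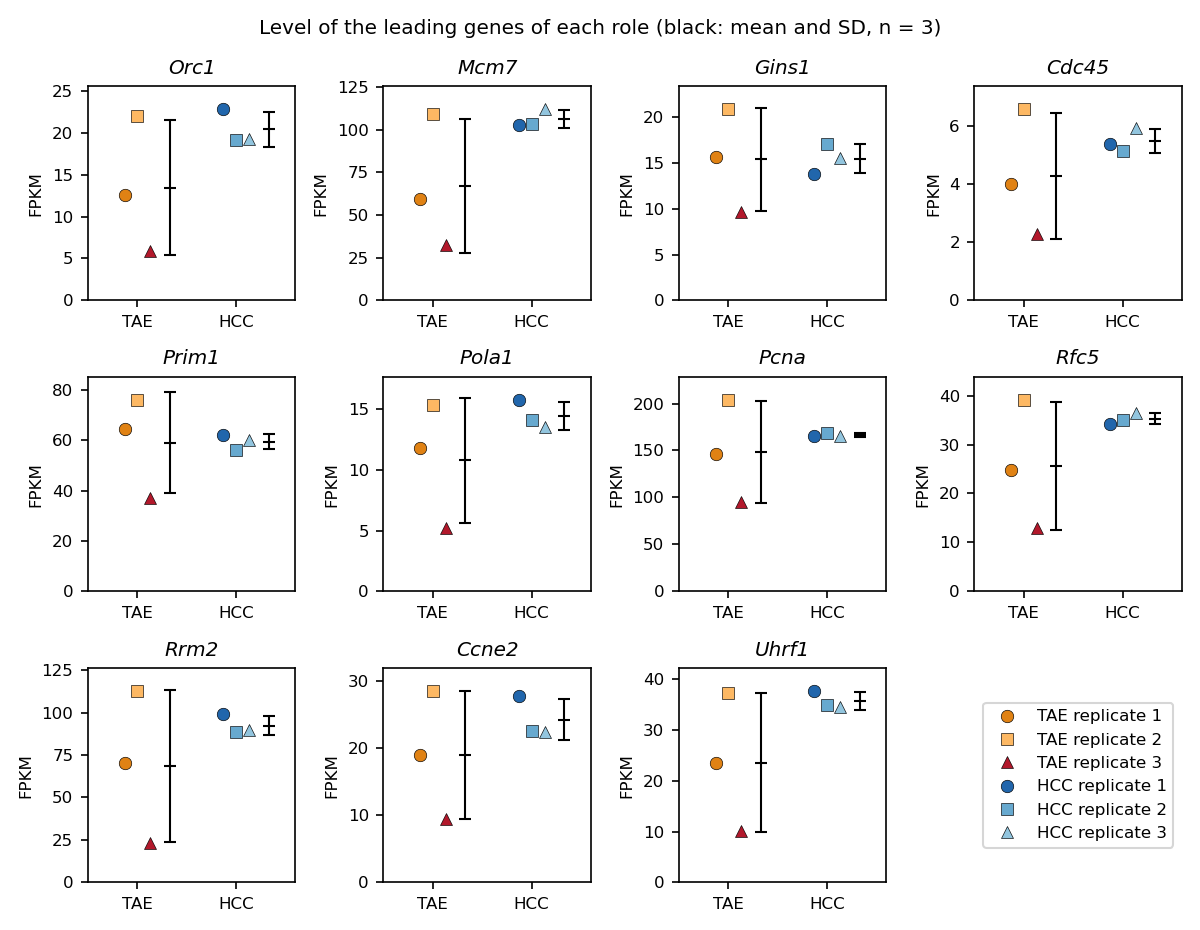
FPKM (y axis, from 0) of the most abundant gene and the gene with the largest log2 change of each role, with 1 point per library and black bars for the mean and SD of 3 libraries. In each panel the TAE points span a wide range and the HCC points lie close together, as for Pcna at 148 ± 54.3 FPKM in TAE and 166 ± 1.68 FPKM in HCC.

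Of 51 other genes of the replication pathway and its regulators that the table held, none passed with all 6 libraries in edgeR, DESeq2 or limma. In edgeR 3 had an unadjusted p under 0.05, where 22.7% of all genes did. The log2 change was negative for 43 of them (53.1% of all genes), and the median over the 51 was -0.30. It was positive for Orc5, Pole4, Pold4, Rrm2b, Atrip, Cdkn1a, Rb1 and Rbl1. Orc5, at 0.23, was higher in every TAE library than in any HCC library in FPKM, as were 21.9% of all genes. This did not hold after TMM scaling. There Orc5 was at -0.088 log2 units in TAE replicate 2, below its lowest HCC library at -0.066. In TAE replicate 3 the median of the 51 was 50.3% of the HCC mean FPKM. The list was drawn with earlier results of these data known. The 4 with the largest log2 change in size were Cdkn1a, Rpa3, Dbf4 and Tipin. Cdkn1a, the p21 inhibitor of cyclin-dependent kinases, was at 41.4, 69.8 and 105 FPKM in TAE replicates 1 to 3 and at 40.7, 43.0 and 44.1 FPKM in HCC replicates 1 to 3, a log2 change of 0.75 ± 0.36 (edgeR adjusted p = 0.261). It was highest in TAE replicate 3, where the replication genes were lowest, and also above the HCC range in TAE replicate 2, where they were not low. Rpa3, the smallest subunit of the protein that coats single-stranded DNA, was at 115, 205 and 73.6 FPKM in TAE replicates 1 to 3 and at 200, 199 and 195 FPKM in HCC replicates 1 to 3 (log2 change -0.69). Dbf4, the activator of the origin-firing kinase, and Tipin, a fork protection factor, had log2 changes of -0.63 each. Without TAE replicate 2, 9 of the 51 fell and 1 rose (9.56% and 14.6% of all genes), the riser being Rb1, the retinoblastoma repressor of E2F factors, at 11.1, 7.25 and 8.05 FPKM in TAE replicates 1 to 3 and 7.34, 6.09 and 5.13 FPKM in HCC replicates 1 to 3. Rb1 was named after its values were seen.

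Other gene lists moved between the same libraries in their own ways. Relative to the HCC mean after TMM scaling, the median of 11 mitosis genes was -0.37, -0.07 and -1.44 log2 units in TAE replicates 1 to 3 and -0.05 to 0.05 in HCC, the same order as the replication genes, and 0 of them passed in edgeR or DESeq2 (0 with an unadjusted p under 0.05 in edgeR). Markers of hepatocytes did not follow that order. The median of 7 hepatocyte genes was -0.81, -1.62 and 0.24 in TAE replicates 1 to 3 and -0.19 to 0.08 in HCC, and TAE replicate 2, with the highest replication transcripts of the TAE libraries, had the lowest hepatocyte median. In TAE replicate 3, which had the lowest replication transcripts, the hepatocyte genes went both ways on that scale, with Cyp2e1 at 1.18, Cps1 at 0.44, Alb at 0.25 and Hnf4a at 0.24 above their HCC ranges, Apoa1 at -0.02 within it, and Ttr at -0.25 and Tat at -0.60 below. Summed hepatocyte FPKM was 8608, 6557 and 18284 in TAE replicates 1 to 3 and 15138 to 19581 in HCC. The 6 macrophage markers had medians of 0.87, 0.47 and 1.67 in TAE replicates 1 to 3 and -0.13 to 0.08 in HCC, and summed to 880, 713 and 1534 FPKM in TAE and to 467 to 552 FPKM in HCC. Of these 6, Cd68 and Csf1r rose in edgeR (3.01% of all genes passed) and 4 passed in DESeq2 (10.4%), while Marco was at 13.7, 12.6 and 80.5 FPKM in TAE replicates 1 to 3 and at 49.9, 31.9 and 34.5 FPKM in HCC replicates 1 to 3. Medians of the 4 T cell markers were -0.19, 0.18 and 1.17 in TAE replicates 1 to 3 and -0.37 to 0.28 in HCC, and those of the 5 fibroblast markers 2.10, 0.98 and 1.77 in TAE and -0.20 to 0.48 in HCC. Of the fibroblast markers Lum rose in edgeR and all 5 passed in DESeq2. No T cell marker passed in edgeR, and only Cd8a did in DESeq2. Cd8a was at 213%, 208% and 305% of its HCC mean FPKM in TAE replicates 1 to 3. By contrast Cd3e was at 70.9%, 106% and 149% of its HCC mean FPKM in TAE replicates 1 to 3, and Cd3d at 72.4%, 116% and 198%. The 5 endothelial markers had medians of 0.50, -0.15 and 0.80 in TAE replicates 1 to 3 and -0.16 to 0.28 in HCC. The 3 B cell markers had medians of 0.57, 0.44 and 1.57 in TAE replicates 1 to 3 and -0.14 to 0.13 in HCC, on few counts, and the 4 bile duct cell markers had medians of 1.40, 0.12 and 0.51 in TAE and -0.18 to 0.16 in HCC. No endothelial, B cell, bile duct or liver tumour marker passed in edgeR. In DESeq2, Ms4a1 of the B cell, Krt19 of the bile duct and Gpc3 of the tumour markers rose (10.4% of all genes passed). Other members of these lists went the other way, with log2 changes of -0.22 for Krt7 and -0.25 for Afp. Krt7, a bile duct marker, was at 156%, 97.0% and 25.3% of its HCC mean FPKM in TAE replicates 1 to 3. No marker was at 0 in any library. The part of these cell types in the differences between replication genes was not tested.

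**Figure D4:**
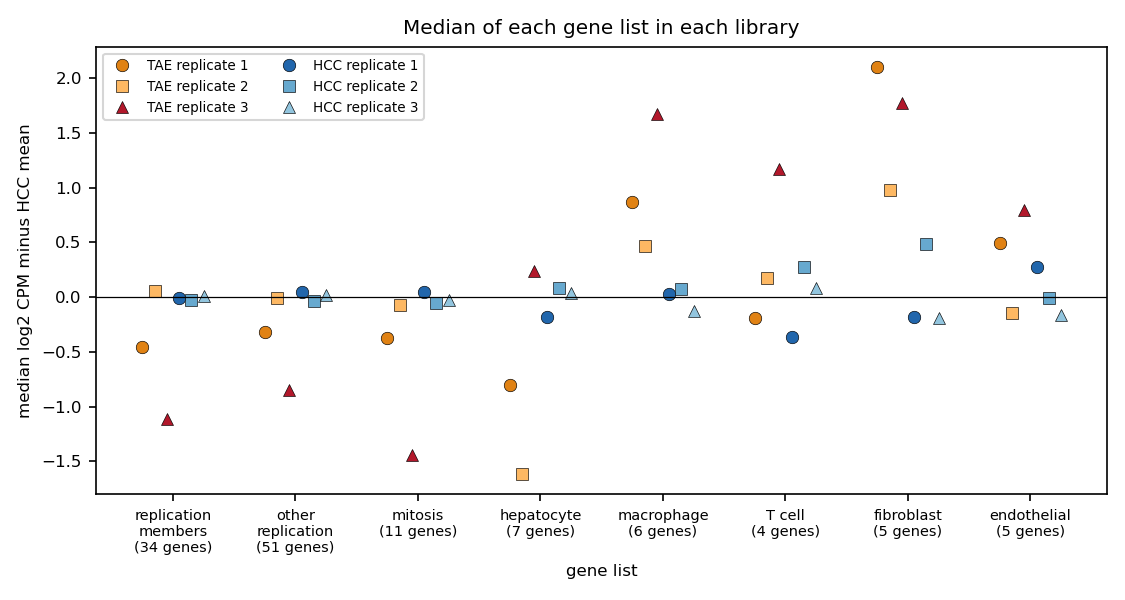
Median of each gene list in each library as log2 CPM after TMM scaling minus the HCC mean (y axis, log2 units), with TAE libraries left of HCC libraries within each list. Replication and mitosis genes share an order of the TAE libraries, with replicate 3 lowest (-1.12 and -1.44), while hepatocyte genes are lowest in TAE replicate 2 (-1.62).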

How the data were processed

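RNA of rat liver from 3 TAE and 3 HCC libraries was enriched for poly(A) RNA and made into strand-specific paired-end libraries, per the labels' protocols. The authors deposited 1 table with a raw count per gene and library. It also holds deposited FPKM values, which were recomputed from counts, exonic sizes and library totals (100% matched within 0.006). The submitters' processing notes name mRatBN7.2, but gene ends on chromosome 1 reach 282724300, beyond that assembly's chromosome, so the build of the table's coordinates is not settled. For aligner, counter and use of strand, the sources used here name nothing.

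Counts were tested with the quasi-likelihood method of edgeR 4.0.16 in R 4.3.3, after TMM scaling and filterByExpr, with no replicate term. Two-sided p-values for TAE over HCC were adjusted by Benjamini-Hochberg over the 14499 genes kept, and 0.05 was the threshold. The approximate SE is the log2 change, without its sign, over the root of the F statistic. Alternatives were median-of-ratios scaling, DESeq2 1.42.0, limma 3.58.1 on log2(FPKM + 1) or log2(FPKM + 0.1) for genes averaging 0.5 FPKM or more, no low-count filter, a replicate block and leaving out each library. DESeq2 without TAE replicate 2 was added after seeing the data. The script was tested on simulated counts.

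All members were named. Values in every library were given, within each role, for the most abundant member, the one with the largest log2 change and any past the threshold, with further examples and all ratios picked after values were seen. Members and lists were chosen with earlier results of these data known.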

Additional observations from a re-analysis of the deposited data

How the results depend on the processing

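All 34 log2 changes of the replication genes stayed negative, and none passed, with median-of-ratios scaling, DESeq2, both limma fits, no low-count filter and the replicate block. Leaving out single libraries gave 0 to 18 called replication genes, 0 to 10 called genes among the other pathway genes, 0 to 3569 called genes in all and medians of the replication genes from -0.73 to -0.15, the highest counts all without TAE replicate 2; without HCC replicates 1, 2 and 3 in turn 0, 1 and 0 genes were called in all, and without TAE replicates 1 and 3, 1 and 1226. Without TAE replicate 3 the log2 changes of Gins1 and Prim1 turned to 0.11 each, with adjusted p of 0.740 and 0.566 in edgeR. Their range over single libraries left out was -0.28 to 0.11 for Gins1 and -0.23 to 0.11 for Prim1. DESeq2 without TAE replicate 2 called 27 replication genes, 22 other pathway genes and 4147 genes in all. Over all genes edgeR called 437, DESeq2 1663, limma 701 with a pseudocount of 1 and 709 with 0.1, and edgeR without the filter 829. Whether replicate numbers pair the samples could not be settled with 3 libraries per group. Deviations of same-numbered libraries from their group means correlated at 0.10, -0.21 and 0.03 across genes for replicates 1, 2 and 3. TAE replicate 1 correlated best with HCC replicate 1. TAE replicate 2 also correlated best with HCC replicate 1, and TAE replicate 3 with HCC replicate 2. With the replicate block edgeR called 0 genes in all and 0 replication genes, whose median was -0.50. The effect of depth on these calls was not tested, and each replication gene had 173 to 5130 counts per library.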
